A study of Mus musculus with 15 samples.

Results

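The genes described here are 54 genes of mitosis, the spindle and the kinetochore, followed across ileal organoids that had been kept with bile acid pools or with vehicle. They were taken by symbol for their known part in cell division, with no threshold on a measured value. The list was drawn up with earlier results of these data known, so its counts beside those of all genes are a description. All 54 were found among the 23420 gene symbols of the count files, and all 54 were among the 13159 genes kept by the filter on low counts, so every count below is over the whole list. For description they were sorted by their known part in division into 10 role groups of 4 to 8 genes.

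The organoids were epithelial cultures grown in gel from intestinal crypts of C57BL/6 mouse ileum, used at passage 2, split on day 10 and treated on day 14. All were opened to expose the lumen and held for 24 h in DMEM with 0.2% BSA, with the pool or the vehicle added. M90 was a pool modelled on mouse bile acids with 90% of them 12α-hydroxylated (carrying a hydroxyl group on carbon 12 of the sterol ring), and M10 was the mouse-modelled pool with 10% of that kind. H90 and H10 were the pools modelled on human bile acids with 90% and 10%, and the vehicle organoids received the vehicle alone. Each of the 5 groups had 3 RNA sequencing libraries, a, b and c. The labels do not say whether these came from separate animals or cultures, so p-values measure only the spread between these libraries, which may be technical. Composition and dose of the pools are not given in the sources used here, so no difference between them can be put down to 1 bile acid.

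Mitosis separates the copied chromosomes. The kinase Cdk1, switched on by B and A cyclins, starts it, and microtubules driven by kinesin motors build the spindle. Kinetochores, protein layers laid on centromeric chromatin, bind the microtubule ends, and the spindle checkpoint holds back the anaphase promoting complex (APC/C), a ubiquitin ligase, until every chromosome is attached. The APC/C then has securin and B cyclins destroyed, separase cuts the cohesin between sister chromatids, and a central spindle guides the furrow that divides the cell. Most of these genes are transcribed in the G2 and M phases of the cell cycle, and in the small intestine such cells lie in the crypts. In bulk RNA, fewer dividing cells and less RNA per dividing cell cannot be told apart.

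Total counts ran from 11245807 to 28989526 per library. The liver transcript Mup20 parted the libraries into a set of 7 (vehicle, H10 and H90 a) above 10 CPM (counts-per-million of the library) and a set of 8 (H90 b and c, M10 and M90) below it. H90 a, the 1 library that ties H90 to the first set, also stood apart in the ribosomal precursor Rn45s, at 14142 CPM, where the remaining 14 libraries had 1739 to 3215. The labels name no batch, so for M10 and M90 against vehicle or H10 the pool and the library set cannot be told apart except through H90. Epithelial markers (12 of 12 above 1 CPM) summed to 17677 to 18271 CPM in M90, 21102 to 21599.6 in M10, 16479.9 to 17308 in H90, 19030.5 to 19347 in H10 and 16516 to 16973.5 CPM in vehicle, so the label of an epithelial culture held. Crypt stem markers (9 genes) summed to 99.2 to 106 CPM in M90, 104 to 113 in M10, 258 to 289 in H90, 108 to 121 in H10 and 482 to 530.3 CPM in vehicle. Like the mitotic genes they were below vehicle in every pool and least so in H90, but their M10 level overlapped those of M90 and H10. Olfm4 was under 1 CPM in every M90, M10 and H10 library. Tnfrsf19 was under 1 CPM in these and in every H90 library, and reached at most 1.18 CPM in any library. The part of these markers in the results below was not tested. Endothelial markers summed to at most 2.53 CPM and immune markers to at most 10.4 CPM in any library, and mesenchymal markers to 17.1 to 24.5 CPM in M90, M10 and H90 against 9.44 to 13.7 CPM in H10 and vehicle. Among the mesenchymal markers Col1a1 followed the library set. It had 0 to 0.107 CPM in the first set, H90 a included, and 3.74 to 8.63 CPM in the second.

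Promoters of these genes are shown because genes of late mitosis are known to be held silent outside G2 and M through a short element, CHR (written TTTGAA or TTCGAA), that often stands with CCAAT boxes, the sites of the factor NF-Y. Windows from 250 bases before to 50 bases after each transcription start were taken from the RefSeq promoter table (GRCm38.p6), which matched 46 of the 54 genes with 50 windows. TTTGAA, searched on both strands, stood in 33 of the 50 windows (66%), against 17.9% of the 32851 windows of the whole table and 12% of those of tested genes. TTCGAA stood in 4 (8%), against 1.56%, and CCAAT in 37 (74%), against 37.4%. A CCAAT together with TTTGAA or TTCGAA was found in 30 windows (60%), against 7.52% of all windows. Within 50 bases of the start on either side, 30 windows held TTTGAA, against 5.14% of all. These letters are matches and not shown to be bound sites. The windows below belong to the highest expressed gene of 5 role groups, a mitotic kinase (Plk1, chr7:122159185-122159484, plus strand), a checkpoint gene (Mad2l1, chr6:66534971-66535270, plus strand), the ubiquitin-conjugating enzyme of the APC/C (Ube2c, chr2:164769679-164769978, plus strand), the centromeric histone (Cenpa, chr5:30666636-30666935, plus strand) and a kinetochore motor (Cenpe, chr3:135212313-135212612, plus strand). Capitals mark TTTGAA and CCAAT, or TTCAAA and ATTGG where they lie on the other strand, and in Ube2c a CCAAT and an ATTGG overlap.
Plk1: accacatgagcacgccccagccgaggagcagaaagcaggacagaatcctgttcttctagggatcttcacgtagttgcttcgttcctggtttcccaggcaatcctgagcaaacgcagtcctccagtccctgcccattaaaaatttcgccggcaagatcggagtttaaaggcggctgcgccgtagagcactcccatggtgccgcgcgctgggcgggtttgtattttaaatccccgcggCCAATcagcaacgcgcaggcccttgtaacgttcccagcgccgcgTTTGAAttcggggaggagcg
Mad2l1: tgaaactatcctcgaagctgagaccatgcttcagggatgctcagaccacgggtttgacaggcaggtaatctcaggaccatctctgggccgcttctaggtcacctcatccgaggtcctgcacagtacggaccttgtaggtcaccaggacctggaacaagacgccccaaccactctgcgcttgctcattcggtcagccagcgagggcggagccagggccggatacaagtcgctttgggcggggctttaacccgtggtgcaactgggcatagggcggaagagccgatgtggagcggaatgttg
Ube2c: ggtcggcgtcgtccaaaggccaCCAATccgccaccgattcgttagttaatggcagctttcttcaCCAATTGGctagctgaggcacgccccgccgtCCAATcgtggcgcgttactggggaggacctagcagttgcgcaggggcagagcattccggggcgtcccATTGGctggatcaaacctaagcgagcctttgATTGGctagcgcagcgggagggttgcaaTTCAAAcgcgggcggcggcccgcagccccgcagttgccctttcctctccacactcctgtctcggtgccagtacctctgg
Cenpa: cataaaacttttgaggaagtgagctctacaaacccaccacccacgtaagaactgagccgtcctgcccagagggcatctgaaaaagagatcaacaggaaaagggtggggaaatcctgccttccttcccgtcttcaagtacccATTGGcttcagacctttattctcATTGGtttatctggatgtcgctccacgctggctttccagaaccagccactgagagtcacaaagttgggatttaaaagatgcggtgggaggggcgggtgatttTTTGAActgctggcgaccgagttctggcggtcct
Cenpe: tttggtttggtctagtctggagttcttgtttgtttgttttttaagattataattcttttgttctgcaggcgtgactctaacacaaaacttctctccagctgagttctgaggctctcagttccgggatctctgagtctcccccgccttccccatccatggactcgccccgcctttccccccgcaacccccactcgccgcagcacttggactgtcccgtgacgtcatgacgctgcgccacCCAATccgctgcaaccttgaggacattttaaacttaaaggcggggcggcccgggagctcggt
Plk1, Ube2c and Cenpa carried TTTGAA near the start beside 1 or more CCAAT, Cenpe carried CCAAT alone, and Mad2l1 carried none of these letters in this window, which ends before the GENCODE start of the gene at 66535390. The median log2 change in M10 against vehicle, described further on, was -4.92 for the 31 matched genes with TTTGAA and -4.67 for those without.

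Summed over the 54 genes, the level was lower in every pool than in vehicle. The 3 libraries had 688, 730 and 713 CPM in M90, 183, 183 and 204 CPM in M10, 2478, 2215 and 2150 CPM in H90, 728, 657 and 696 CPM in H10, and 3475, 3310 and 3544 CPM in vehicle. No library of one group lay within the range of another group, except between M90 and H10. As means this was 710 ± 21.1 CPM in M90 (SD, n = 3), or 20.6% of vehicle, and 190 ± 11.8 CPM in M10, or 5.52%. In the human-modelled pools it was 2281 ± 174 CPM in H90, or 66.2%, and 694 ± 35.6 CPM in H10, or 20.1%, beside 3443 ± 120 CPM in vehicle. The order was the same gene by gene. In all 54 genes the group mean was lowest in M10, then came H10 and M90 in either order, then H90, and it was highest in vehicle.

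**Figure D1:**
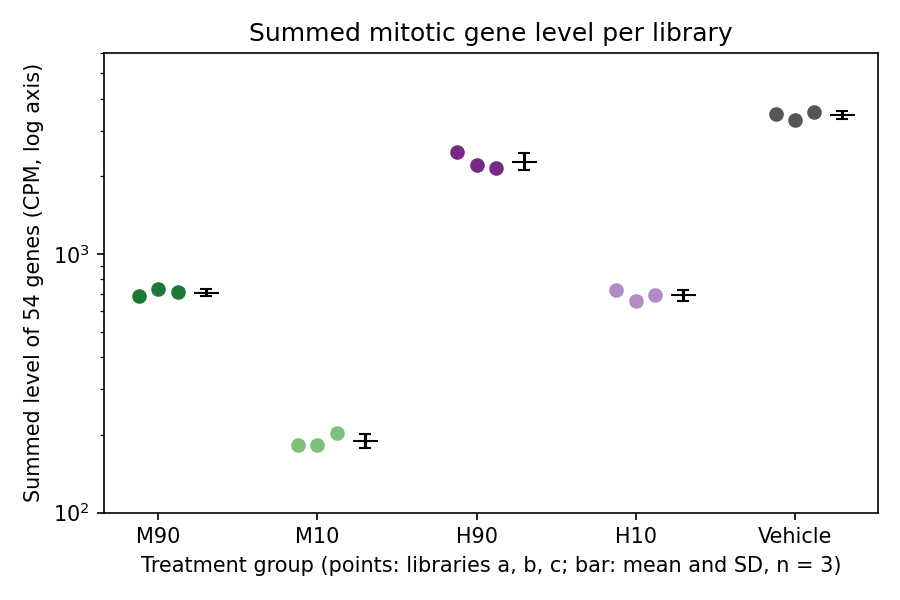
Summed level of the 54 genes in each library, in CPM on a log axis, by treatment group. Points are libraries a, b and c, and the bar beside them is the mean with its SD (n = 3). M10 lies lowest at 190 ± 11.8 CPM, M90 and H10 lie together at 710 and 694 CPM, H90 lies at 2281 ± 174 CPM and vehicle at 3443 ± 120 CPM.

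By edgeR's quasi-likelihood test with adjustment over all tested genes, and with adjusted p under 0.05 counted as a change, 54 of 54 fell in M90 (median log2 change -2.44, range -2.94 to -0.37). Of all 13159 genes 28.5% fell in M90, with a median of -0.02. In M10, 54 of 54 fell (median -4.93, range -9.04 to -0.95), against 33.3% of all genes. In H90, 44 of 54 fell (median -0.61, range -0.82 to -0.06), against 9.86% of all genes. In H10, 53 of 54 fell (median -2.42, range -2.91 to -0.28), against 24.5% of all genes. The medians over all genes were between -0.03 (M10) and -0.004 (H10). Library values below those of vehicle without overlap were found for 54 of 54 genes in M90 (33.8% of all genes), M10 (35.4%) and H10 (30.8%), and for 50 of 54 in H90 (17.9%), the exceptions there being Troap, Cenpm, Cenpn and Spc25. The H90 count rests partly on which libraries are compared. With a term for library set it was 18 (median -0.48), when 2.7% of all genes were called lower. Within the first set it was 37 (5.33% of all genes), but there H90 is H90 a alone, an arm of 1 library whose spread is taken from the other groups. Leaving out 1 library gave 36 to 46 (6.6% to 10.7% of all genes), and without H90 a it was 43 (10.3%). Among the genes whose libraries are given below, the term for set ended the H90 calls of Cdk1, Ccnb1, Plk1, Tpx2, Melk, Bub1, Espl1, Aurkb, Incenp, Birc5, Cdca8, Nuf2, Cenpe, Kif15, Mki67 and Esco2 (adjusted p = 0.0537 to 0.483). Leaving out 1 vehicle or H90 library ended those of Tpx2, Bub1, Incenp, Cdca8, Nuf2, Mki67 and Esco2 (adjusted p = 0.0504 to 0.238). H90 calls below are to be read with these limits.

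**Figure D2:**
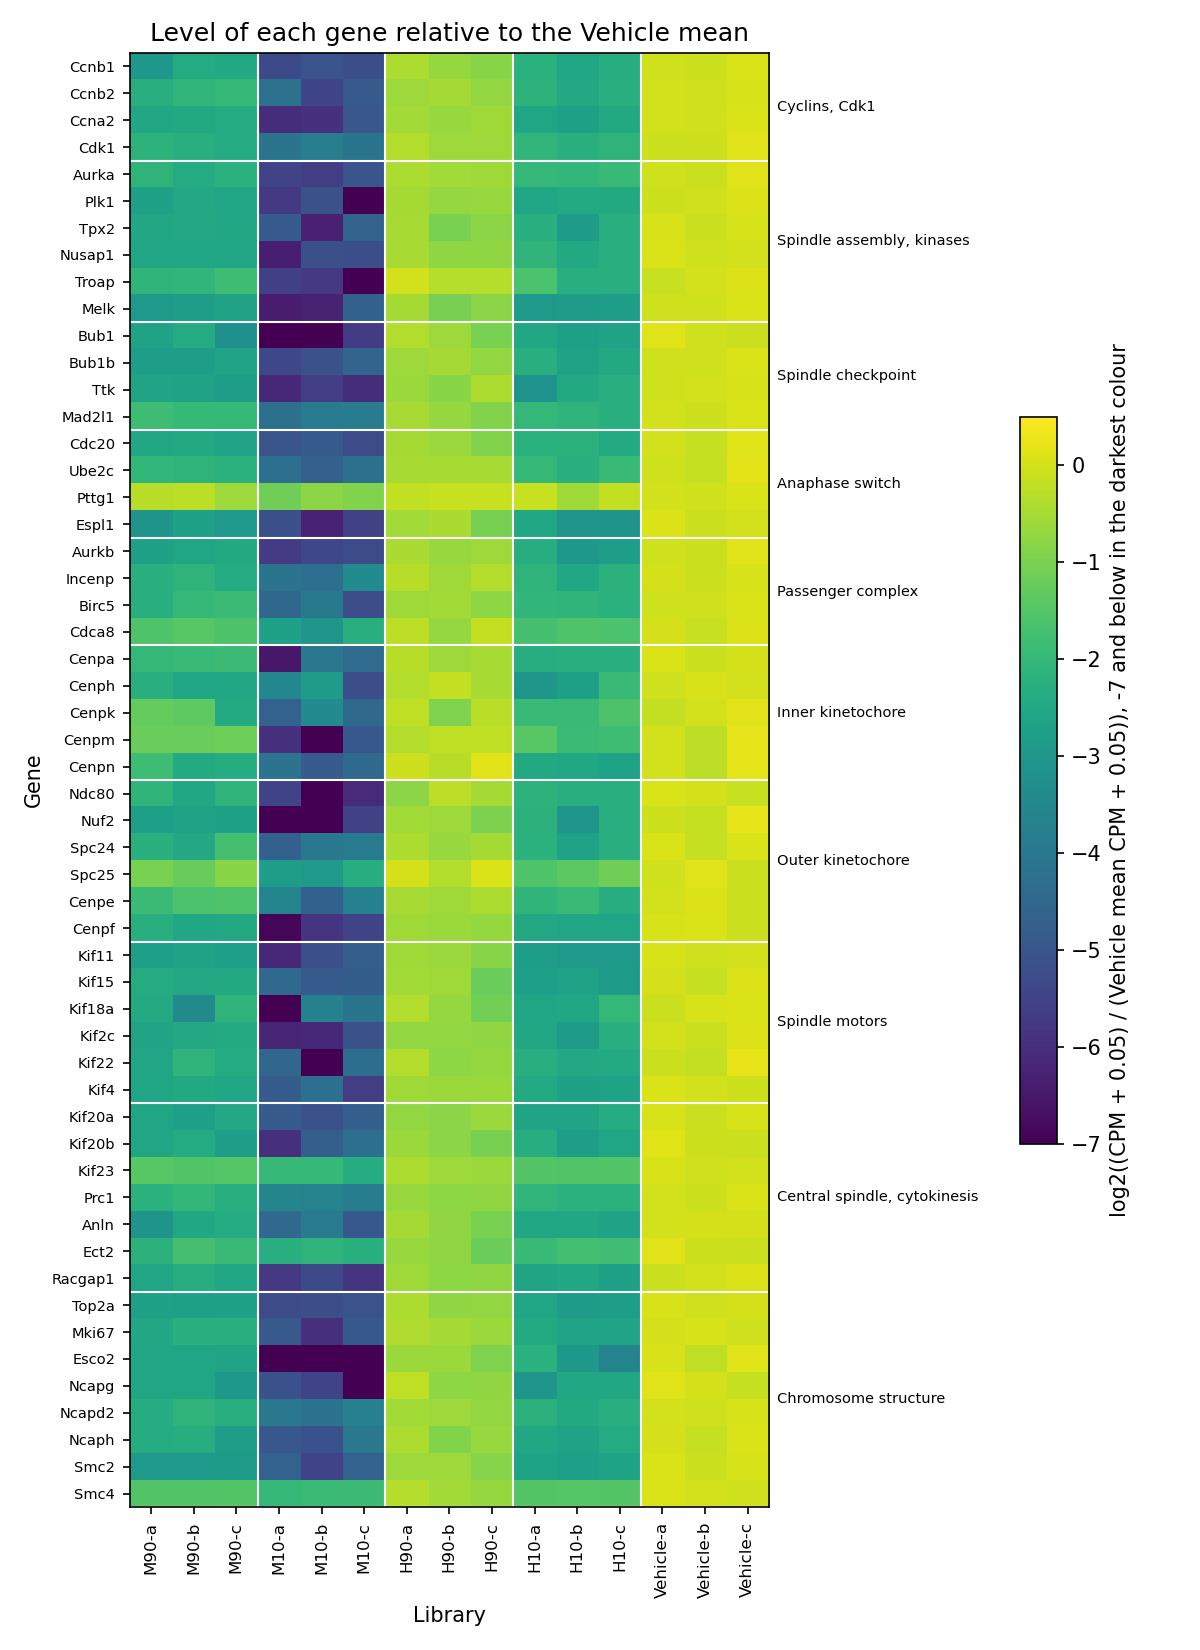
Level of each gene (rows, grouped by role) in each library (columns), as log2 of its CPM over the vehicle mean with 0.05 CPM added to both. Yellow is the vehicle level and darker colours are lower, with values of -7 and below in the darkest colour. The M10 columns are darkest, H90 stays nearest to vehicle, and the rows of Pttg1, Kif23, Ect2 and Smc4 stay lighter than their neighbours in M10.

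On a log2 scale the changes lay closer together in H90 than in M10, where the median change was also larger. As a share of its own vehicle mean a gene kept 56.1% to 96.0% in H90 (median 65.4%) and 0.180% to 51.7% in M10 (median 3.31%). In M10, 39 genes were under 5% of vehicle, 9 lay from 5 to 10%, and 6 were at or above 10%. These 6 were Pttg1, Smc4, Kif23, Ect2, Cdca8 and Spc25. The SD of the log2 changes over the 54 genes was 1.36 in M10, 0.502 in M90, 0.169 in H90 and 0.459 in H10. The medians were -4.93, -2.44, -0.61 and -2.42 in the same order, so the spread grew with the size of the change. In M10 the values of Esco2, Troap, Cenpm, Nuf2 and Ndc80 rest on only 3 to 22 counts each. Those of Ttk (6, 8 and 5 counts in M10 a, b and c), Bub1 (4, 5 and 12) and Cenpn (10, 5 and 6) rest on similarly few.

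The switch into mitosis was lowered as a whole. Cdk1, the kinase that starts mitosis, had 19.3, 17.5 and 16.3 CPM in M90, 4.86, 6.11 and 4.99 in M10, 66.8, 56.2 and 56.5 in H90, 20.4, 18.1 and 19.5 in H10 and 81.0, 81.6 and 93.7 CPM in vehicle. Ccna2, the A cyclin of S and G2 phase, had 33.9, 35.1 and 36.6 CPM in M90, 2.91, 3.12 and 6.11 in M10, 131, 123 and 129.7 in H90, 32.4, 28.7 and 35.1 in H10 and 191, 185 and 201 CPM in vehicle. Every pool library lay below every vehicle library for both genes. Their log2 changes in M10 were -4.00 (SE 0.115, adjusted p = 5.72e-27) for Cdk1 and -5.61 (SE 0.147, adjusted p = 7.81e-18) for Ccna2, so Ccna2 kept 2.11% of its vehicle level and Cdk1 6.23%. Ccnb1, a B cyclin, had 6.28, 9.73 and 9.24 CPM in M90, 1.23, 1.45 and 1.32 in M10, 37.6, 31.9 and 28.8 in H90, 10.99, 8.63 and 10.2 in H10 and 49.6, 48.8 and 54.1 CPM in vehicle. It kept 16.5% of vehicle in M90, 2.62% in M10, 64.4% in H90 and 19.5% in H10, and its H90 change was -0.63 (SE 0.127, adjusted p = 0.000291). Ccnb2, the other B cyclin, kept 3.70% of vehicle in M10 and 65.5% in H90. All 4 genes fell in each of the 4 pools, but with the term for library set the H90 calls of Ccnb1 (adjusted p = 0.136) and Cdk1 (0.0785) ended. Per kilobase of exon Ccnb2, Ccna2 and the anaphase genes Cdc20 and Ube2c had the highest vehicle levels of the list, with 50.8, 47.1, 51.9 and 48.8 CPM per kb, and Kif18a the lowest with 1.13.

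The kinases and builders of the spindle (Aurka, Plk1, Tpx2, Nusap1, Troap and Melk) had the most negative role median in M10, -5.63, against -2.54 in M90, -0.63 in H90 and -2.36 in H10. Plk1, the polo kinase of centrosome maturation and mitotic exit, had 12.7, 14.72 and 13.9 CPM in M90, 1.49, 2.31 and 0.509 in M10, 57.3, 50.7 and 52.1 in H90, 13.9, 15.5 and 14.98 in H10 and 79.2, 79.4 and 88.6 CPM in vehicle. Its change was -5.79 (SE 0.182, adjusted p = 3.31e-21) in M10 and -0.62 (SE 0.125, adjusted p = 0.000457) in H90. Tpx2, which activates Aurora A on spindle microtubules, had 13.4, 13.7 and 13.3 CPM in M90, 2.64, 0.897 and 3.06 in M10, 54.4, 38.0 and 43.3 in H90, 15.9, 10.3 and 15.5 in H10 and 78.4, 71.2 and 78.2 CPM in vehicle. The H90 libraries of Tpx2 were spread over a wider range than those of Plk1, and its H90 change was -0.74 (SE 0.197, adjusted p = 0.0158). That call was also lost by DESeq2 (adjusted p = 0.0542) and without vehicle a, vehicle c, H90 b or H90 c (0.0538 to 0.0701). Melk, a kinase found in dividing and progenitor cells, had 6.93, 7.69 and 8.34 CPM in M90, 0.574, 0.641 and 2.04 in M10, 37.5, 25.9 and 30.9 in H90, 6.79, 7.28 and 7.61 in H10 and 51.8, 52.0 and 56.6 CPM in vehicle. Melk had the most negative H90 change of this role group (-0.76, SE 0.164, adjusted p = 0.00115). Troap, a spindle-associated protein first described in cell adhesion, had 2.21, 2.26 and 2.65 CPM in M90, 0.153, 0.128 and 0 in M10, 9.55, 7.70 and 7.62 in H90, 3.02, 1.98 and 1.96 in H10 and 8.86, 9.63 and 10.4 CPM in vehicle. Its H90 libraries overlapped those of vehicle and its H90 change did not pass (-0.21, 95% interval -0.71 to 0.29, adjusted p = 0.605). In M10 it was down to 7 counts over 3 libraries against 676 in vehicle, a pooled ratio of 1.04% (95% counting interval 0.418% to 2.16%).

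Spindle checkpoint genes, which keep the APC/C inactive until all chromosomes are attached, fell in every pool, with role medians of -2.72 in M90, -5.58 in M10, -0.62 in H90 and -2.52 in H10. Bub1, the kinase that recruits the checkpoint to kinetochores, had 5.22, 6.43 and 3.51 CPM in M90, 0.153, 0.214 and 0.611 in M10, 25.9, 22.3 and 16.8 in H90, 5.93, 4.99 and 5.25 in H10 and 37.0, 32.4 and 31.4 CPM in vehicle. In M10 this was 0.970% of vehicle, from 4, 5 and 12 counts. The log2 change of -6.75 (SE 0.286, adjusted p = 1.85e-20) was the second most negative of the list after Esco2. Bub1b, which encodes the checkpoint protein BubR1, had 8.39, 8.21 and 9.45 CPM in M90, 1.38, 1.62 and 2.44 in M10, 38.6, 41.3 and 35.8 in H90, 12.2, 9.20 and 10.8 in H10 and 56.7, 57.3 and 61.8 CPM in vehicle. Mad2l1, which encodes Mad2, the inhibitor that binds Cdc20, had 16.8, 15.03 and 15.1 CPM in M90, 3.10, 3.89 and 4.12 in M10, 42.7, 37.4 and 31.6 in H90, 14.9, 13.7 and 12.7 in H10 and 59.3, 57.0 and 62.4 CPM in vehicle. Mad2l1 was the least lowered of the 4 in M10 (-4.02, SE 0.134, adjusted p = 6.48e-25), M90 and H10, and the most lowered in H90 (-0.67, SE 0.109, adjusted p = 1.17e-05), where the 4 changes lay between -0.67 and -0.60. Ttk, the kinase that starts checkpoint signalling, kept 1.405% of vehicle in M10 (6, 8 and 5 counts) and 65.0% in H90.

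At the switch to anaphase the RNA of the inhibitor securin was the least lowered of the list in M90, M10 and H10. That of its target separase was among the most lowered in M90 and H10. Pttg1, which encodes securin, the inhibitor of separase, had 11.7, 12.1 and 9.45 CPM in M90, 6.55, 8.20 and 7.54 in M10, 12.6, 13.1 and 13.1 in H90, 13.0, 9.62 and 12.7 in H10 and 14.2, 13.8 and 15.05 CPM in vehicle. Its M90 libraries all lay below vehicle, but by little, and its M90 change was -0.37 (SE 0.156, adjusted p = 0.0413). That call ended with RLE scaling (adjusted p = 0.0543), with no filter on low counts (0.0623), with a term for library set (0.272), and without vehicle a, b or c, M90 a or M90 c (0.0575 to 0.209). In M10 Pttg1 kept 51.7% of vehicle (-0.95, SE 0.160, adjusted p = 2.52e-06), the highest share of the list. H90 and H10 did not pass (-0.15, 95% interval -0.47 to 0.17, and -0.28, 95% interval -0.60 to 0.03). Espl1, which encodes separase, the protease that cuts cohesin, had 3.77, 5.08 and 4.28 CPM in M90, 0.881, 0.384 and 0.662 in M10, 22.6, 24.2 and 16.1 in H90, 5.87, 3.85 and 3.80 in H10 and 35.9, 30.7 and 33.1 CPM in vehicle. That was 13.2% of vehicle in M90 and 1.93% in M10, and its change in M10 was -5.66 (SE 0.240, adjusted p = 9.34e-22). Cdc20, the activator of the APC/C in mitosis, had 16.9, 17.7 and 15.7 CPM in M90, 2.95, 3.25 and 2.44 in M10, 67.8, 62.5 and 51.7 in H90, 20.8, 21.2 and 18.3 in H10 and 96.7, 87.1 and 107 CPM in vehicle. Ube2c, the ubiquitin-conjugating enzyme that works with the APC/C, had 30.8, 29.3 and 27.2 CPM in M90, 6.55, 4.78 and 6.72 in M10, 89.9, 90.4 and 89.9 in H90, 31.8, 26.8 and 32.8 in H10 and 124, 112 and 144 CPM in vehicle. Cdc20 and Ube2c fell in every pool, to 2.97% and 4.75% of vehicle in M10 and 62.6% and 71.1% in H90.

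The chromosomal passenger complex, which corrects wrong attachments and later guides cytokinesis, has Aurora B as its kinase and 3 partners that place it. Aurkb, the kinase, had 7.58, 8.21 and 9.07 CPM in M90, 0.919, 1.15 and 1.27 in M10, 36.5, 31.8 and 32.8 in H90, 9.91, 6.24 and 7.21 in H10 and 48.8, 46.8 and 54.6 CPM in vehicle. Cdca8, which encodes borealin, had 19.0, 20.5 and 18.5 CPM in M90, 8.58, 6.53 and 11.46 in M10, 47.1, 34.97 and 49.1 in H90, 17.0, 18.8 and 18.2 in H10 and 56.5, 51.2 and 61.0 CPM in vehicle. Both fell in every pool, but in M10 Aurkb kept 2.23% of its vehicle level and Cdca8 15.8%, with log2 changes of -5.50 (SE 0.178, adjusted p = 2.35e-25) and -2.68 (SE 0.141, adjusted p = 3.54e-17). Incenp, the scaffold, had 16.4, 17.6 and 14.67 CPM in M90, 4.40, 3.97 and 7.33 in M10, 62.1, 51.9 and 59.8 in H90, 17.6, 13.4 and 17.1 in H10 and 78.6, 72.4 and 79.9 CPM in vehicle. Birc5, which encodes survivin, had 15.1, 18.3 and 19.9 CPM in M90, 3.25, 4.70 and 1.93 in M10, 49.9, 50.4 and 42.9 in H90, 17.5, 17.2 and 15.9 in H10 and 71.8, 71.6 and 77.8 CPM in vehicle. In M10 these partners kept 6.801% and 4.47%. The H90 changes of the 4 genes ran from -0.62 (Birc5) to -0.36 (Cdca8, adjusted p = 0.0362), and all 4 calls ended with the term for library set (adjusted p = 0.0537 to 0.483). The Cdca8 call also ended without vehicle a, vehicle c or H90 b (adjusted p = 0.0945 to 0.238).

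The inner kinetochore genes stood nearest to vehicle in H90. Cenpa, the histone variant that marks centromeres, had 10.7, 11.3 and 11.9 CPM in M90, 0.421, 2.61 and 2.04 in M10, 35.1, 28.5 and 30.7 in H90, 8.57, 8.94 and 8.66 in H10 and 45.3, 40.2 and 43.9 CPM in vehicle. Its H90 libraries lay below vehicle without overlap, yet the change did not pass (-0.45, SE 0.212, adjusted p = 0.153). It did pass with no filter on low counts, with those groups fitted alone, by limma-voom, and without M10 a or M10 b (adjusted p = 0.00272 to 0.0377). Cenpn, which reads the Cenpa nucleosome, had 2.11, 1.39 and 1.45 CPM in M90, 0.383, 0.214 and 0.306 in M10, 7.20, 6.13 and 8.55 in H90, 1.35, 1.30 and 1.18 in H10 and 7.52, 6.45 and 8.81 CPM in vehicle. H90 and vehicle overlapped widely for Cenpn, with a difference of -0.06 (95% interval -0.60 to 0.47). Cenpm, a small subunit of the same centromere network, had 3.26, 3.30 and 3.46 CPM in M90, 0.0766, 0 and 0.204 in M10, 5.95, 6.56 and 6.60 in H90, 2.80, 2.03 and 2.12 in H10 and 7.69, 6.49 and 8.94 CPM in vehicle. In M10 it had 6 counts over 3 libraries against 530 in vehicle, or 1.14% (95% counting interval 0.417% to 2.5%), and in M90 it kept 43.4%. Cenph and Cenpk, partners in a subcomplex that bridges to the outer layer, were low throughout. Cenph had 1.86, 1.52 and 1.58 CPM in M90, 0.766, 1.196 and 0.204 in M10, 7.20, 8.08 and 6.60 in H90, 1.08, 1.35 and 2.35 in H10 and 9.03, 9.56 and 9.11 CPM in vehicle. Cenpk had 4.02, 3.78 and 1.80 CPM in M90, 0.345, 0.897 and 0.407 in M10, 8.30, 4.99 and 8.04 in H90, 2.53, 2.495 and 3.21 in H10 and 8.56, 9.67 and 10.96 CPM in vehicle. Both fell in M90, M10 and H10, but the M90 call of Cenpk ended with the term for library set (adjusted p = 0.0578). In H90, 0 of these 5 genes passed by edgeR, 1 (Cenpa) had an unadjusted p under 0.05, and 1 (Cenpa) passed by limma-voom and 0 by DESeq2. Apart from Cenpa their vehicle means were 7.59 to 9.74 CPM. The intervals of the H90 changes reached from -1.01 to 0.47, and all but that of Cenpn (lower end -0.60) held the median change of the whole list, -0.61.

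At the outer kinetochore, where microtubules are bound, the 4 subunits of the Ndc80 complex were not lowered alike in M10. Nuf2, part of the microtubule-binding head, had 3.47, 3.69 and 3.64 CPM in M90, 0.115, 0.128 and 0.458 in M10, 16.4, 15.7 and 12.2 in H90, 5.23, 2.76 and 4.82 in H10 and 22.7, 21.2 and 27.8 CPM in vehicle. Spc25, part of the stalk that reaches the centromere, had 9.74, 8.25 and 10.9 CPM in M90, 2.76, 2.43 and 3.82 in M10, 19.5, 15.1 and 20.5 in H90, 6.57, 7.33 and 8.86 in H10 and 19.1, 21.2 and 18.2 CPM in vehicle. In M10 Nuf2 was at 0.979% of vehicle (15 counts over 3 libraries) and Spc25 at 15.4%, with log2 changes of -6.74 (SE 0.314, adjusted p = 1.74e-20) and -2.71 (SE 0.188, adjusted p = 1.94e-15). The partner of Nuf2 in the head, Ndc80, was at 1.30% (22 counts), and the partner of Spc25 in the stalk, Spc24, at 5.35%. In H90 Spc25 overlapped vehicle and did not pass (-0.09, 95% interval -0.42 to 0.24), while the other subunits fell. Cenpe, the kinesin that carries chromosomes to the spindle middle, had 15.2, 18.2 and 18.8 CPM in M90, 4.56, 2.18 and 4.28 in M10, 40.1, 38.1 and 41.9 in H90, 13.2, 14.6 and 11.1 in H10 and 56.0, 60.2 and 52.4 CPM in vehicle. It fell in every pool, to 30.9% of vehicle in M90, 6.53% in M10, 71.2% in H90 and 23.0% in H10. Cenpf, a large protein of the outer layer, kept 1.505% in M10 and 65.2% in H90.

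Spindle motors lay close to each other, with role medians of -2.52 in M90, -4.89 in M10, -0.68 in H90 and -2.57 in H10. Kif11, the kinesin that pushes the spindle poles apart, had 14.9, 16.2 and 15.01 CPM in M90, 1.42, 2.78 and 3.82 in M10, 69.1, 66.5 and 57.0 in H90, 14.71, 13.2 and 13.0 in H10 and 106, 99.0 and 102 CPM in vehicle. Kif15, which can take over part of that work, had 7.53, 7.04 and 7.23 CPM in M90, 1.76, 1.28 and 1.37 in M10, 27.0, 26.3 and 17.4 in H90, 5.76, 6.13 and 5.18 in H10 and 40.2, 35.3 and 42.8 CPM in vehicle. Kif11 had the most negative change of the list in H10 (-2.91, SE 0.128, adjusted p = 1.7e-17), and Kif15 the most negative of the motors in H90 (-0.73, SE 0.142, adjusted p = 0.000169). Kif2c, a kinesin that dismantles microtubule ends, had 5.48, 6.12 and 6.37 CPM in M90, 0.421, 0.427 and 0.917 in M10, 20.8, 20.9 and 20.1 in H90, 5.93, 4.52 and 6.86 in H10 and 33.5, 31.9 and 36.9 CPM in vehicle. At 1.72% of vehicle it was the most lowered motor in M10 (-5.89, SE 0.221, adjusted p = 2.28e-23). Kif22, which binds chromosome arms, had 7.79, 10.6 and 8.77 CPM in M90, 1.95, 0.171 and 2.29 in M10, 35.7, 27.0 and 28.5 in H90, 9.32, 8.16 and 8.51 in H10 and 42.4, 40.3 and 54.7 CPM in vehicle. Kif18a, which dampens chromosome movements, had 2.06, 0.999 and 2.52 CPM in M90, 0, 0.811 and 0.611 in M10, 8.54, 6.83 and 5.16 in H90, 1.83, 1.87 and 2.74 in H10 and 10.3, 11.4 and 11.7 CPM in vehicle. Both lay below vehicle in every H90 library without passing, with 95% intervals of -1.23 to 0.06 and -1.47 to 0.10. They did pass by limma-voom (adjusted p = 0.00206 for Kif22 and 0.0395 for Kif18a), with those groups fitted alone (0.000869 and 0.0173) and with no filter on low counts (6.97e-05 and 0.0431). Kif22 also passed with a non-robust fit (adjusted p = 0.0394) and without M10 b (0.000743), and Kif18a without M10 a (0.0457). M10 is not part of this contrast, so these H90 results depend on libraries outside it. Kif4, another chromosome-bound kinesin, kept 3.50% in M10 and 65.8% in H90, and both were called.

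Genes of the central spindle and cytokinesis all fell, some to under 5% and some to over 20% of vehicle in M10. Kif23 and Racgap1 encode the paired subunits of centralspindlin, the complex that bundles the central spindle, and Ect2 is the exchange factor that it recruits to switch on RhoA. Kif23 had 26.0, 24.5 and 25.5 CPM in M90, 17.9, 17.9 and 13.6 in M10, 52.2, 46.6 and 46.0 in H90, 25.1, 24.3 and 24.7 in H10 and 73.1, 69.0 and 69.7 CPM in vehicle. Racgap1 had 15.5, 18.2 and 15.8 CPM in M90, 1.65, 2.26 and 1.53 in M10, 61.6, 53.5 and 54.3 in H90, 14.71, 16.1 and 13.7 in H10 and 85.9, 90.3 and 97.7 CPM in vehicle. Both were lowest in M10, where Kif23 kept 23.3% of its vehicle level (-2.09, SE 0.0964, adjusted p = 1.21e-20) and Racgap1 1.99% (-5.64, SE 0.133, adjusted p = 2.14e-29). Ect2 had 14.4, 19.8 and 16.9 CPM in M90, 13.4, 15.03 and 13.9 in M10, 41.9, 39.3 and 29.0 in H90, 17.3, 19.0 and 18.7 in H10 and 72.8, 62.7 and 60.7 CPM in vehicle. M90 and M10 of Ect2 overlapped, and in M10 it kept 21.5% (-2.21, SE 0.121, adjusted p = 2.63e-18). In H90 Ect2 had the most negative change of the list (-0.82, SE 0.114, adjusted p = 7.08e-07), with 56.1% of vehicle left. Prc1, the bundler of the central spindle, kept 7.68% in M10, Anln, a scaffold of the furrow, 4.80%, and the kinesins Kif20a and Kif20b 3.27% and 3.41%. All 7 genes fell in each pool.

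Chromosome structure genes showed the same contrast between partners. Smc2 and Smc4 are the core pair of condensin, the complex that compacts chromosomes. Smc4 had 44.9, 44.8 and 45.6 CPM in M90, 32.4, 35.3 and 35.5 in M10, 104, 89.0 and 81.2 in H90, 45.7, 46.4 and 45.7 in H10 and 136, 128 and 126 CPM in vehicle. Smc2, for which means are given, had 9.32 ± 0.254 CPM in M90, 2.41 ± 0.753 in M10, 44.6 ± 4.17 in H90, 11.1 ± 0.458 in H10 and 71.7 ± 4.53 CPM in vehicle (SD, n = 3 each). In M10 Smc4 kept 26.4% and Smc2 3.36%, and the other condensin subunits Ncapg, Ncapd2 and Ncaph kept 1.79%, 6.43% and 4.03%. The changes in M10 were -1.92 (SE 0.0757, adjusted p = 1.07e-22) for Smc4 and -4.90 (SE 0.145, adjusted p = 1.35e-26) for Smc2. Mki67, the coat protein of mitotic chromosomes used as a stain for dividing cells, had 50.1, 61.4 and 61.6 CPM in M90, 9.61, 4.53 and 9.37 in M10, 219, 202 and 186 in H90, 54.5, 46.7 and 47.2 in H10 and 292, 296 and 280.3 CPM in vehicle. It fell to 2.71% of vehicle in M10. Its H90 libraries lay below vehicle without overlap, but the call there (-0.51, SE 0.147, adjusted p = 0.0293) was lost in 7 of the alternatives, with adjusted p up to 0.338. Esco2, which acetylates cohesin so that sister chromatids stay joined, had 4.27, 4.30 and 4.15 CPM in M90, 0.0383, 0 and 0.102 in M10, 16.9, 16.8 and 13.4 in H90, 5.60, 3.17 and 2.08 in H10 and 27.0, 22.4 and 28.5 CPM in vehicle. Over the M10 libraries it had 3 counts in all against 1781 in vehicle, a pooled ratio of 0.170% (95% counting interval 0.0350% to 0.497%), and its fitted change of -9.04 depends on the small count added in the fit.

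**Figure D3:**
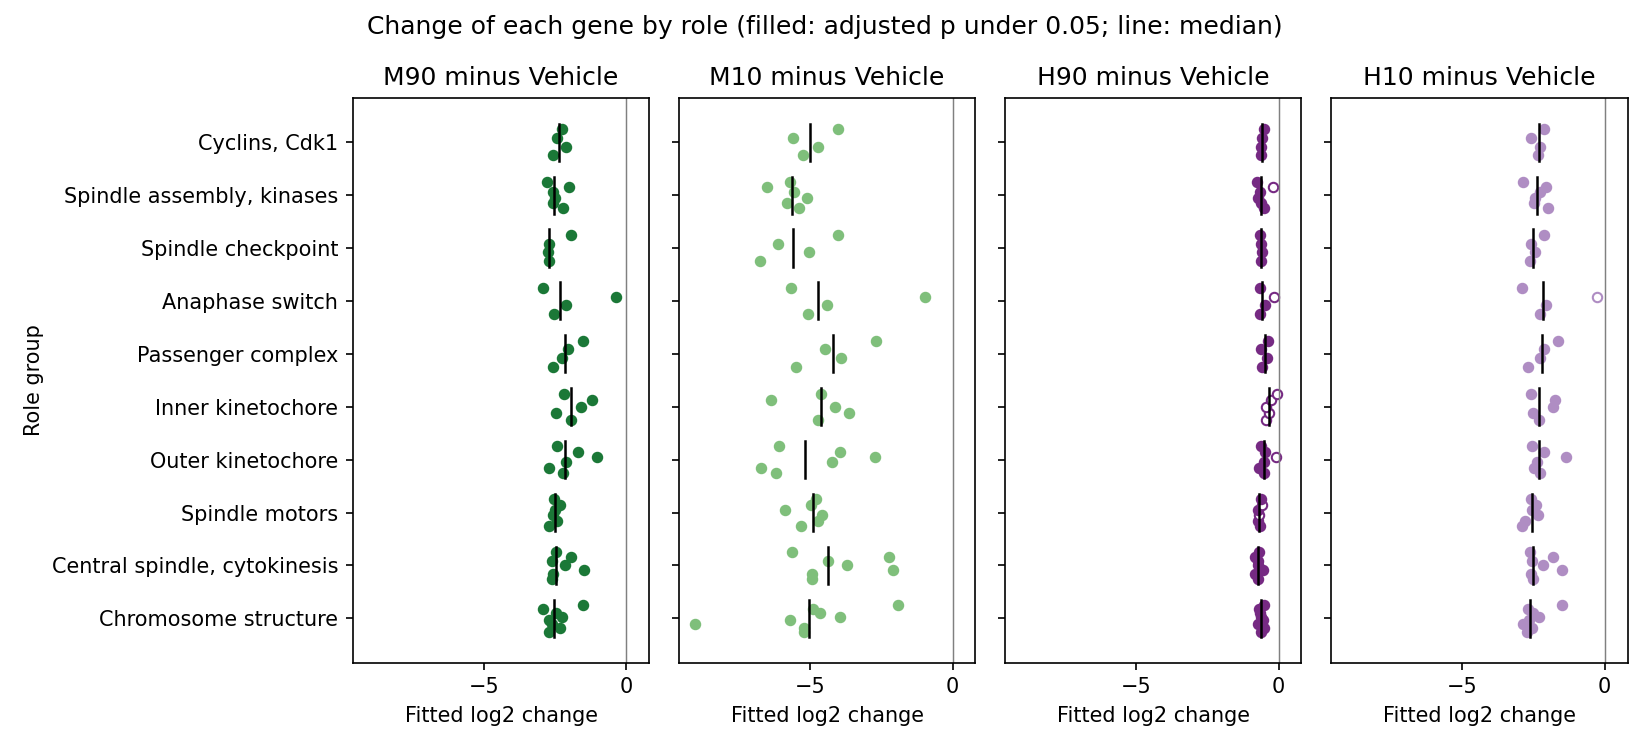
Fitted log2 change of each gene against vehicle in M90, M10, H90 and H10, in panels from left to right, with genes in rows by role group. Filled points had adjusted p under 0.05, open points did not, and the short line is the median of the role. Changes in H90 lie between -0.82 and -0.06, those in M10 spread from -9.04 to -0.95, and all 5 open points of the inner kinetochore row are in the H90 panel.

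The pools with the higher 12α-hydroxylated share left more mitotic RNA in both models. In H90 minus H10, 53 of 54 genes were higher (median 1.82, range 0.13 to 2.51), against 18.2% of all genes, and 53 had H90 libraries above H10 without overlap (22.7% of all genes). Pttg1 was the exception in both counts (0.13, 95% interval -0.19 to 0.46). Cenpn (2.51, SE 0.301, adjusted p = 1.36e-08) and Kif11 (2.24, SE 0.129, adjusted p = 3.6e-14) differed most, before Espl1 (2.24), Cenph (2.166) and Esco2 (2.15). The smallest differences after Pttg1 were those of Kif23 (0.97), Smc4 (0.998), Ect2 (1.01) and Spc25 (1.26). In M90 minus M10, 53 of 54 were higher (median 2.51, range 0.28 to 6.43), against 21.3% of all genes, and 53 had M90 libraries above M10 without overlap (26.5%). Ect2 was the exception (0.28, 95% interval 0.02 to 0.53, adjusted p = 0.0752), although it passed with upper-quartile or library-size scaling, with no filter, and without H90 c or M90 a (adjusted p = 0.0114 to 0.0445). Smc4 (0.39, SE 0.0771, adjusted p = 7.03e-05), Pttg1 (0.58), Kif23 (0.61) and Cdca8 (1.14) were next. Esco2 (6.43), Cenpm (5.17, SE 0.459, adjusted p = 9.77e-12) and Troap (4.49, SE 0.443, adjusted p = 1.32e-10) differed most, all from M10 levels of 7 counts or fewer in total, and Bub1 (4.02) and Nuf2 (4.01) followed. All 6 libraries of M90 and M10 lie in the same library set, and within it 52 genes were called, with 17.3% of all genes higher. Within the first set 53 were called in H90 minus H10 (16.2% of all genes), but with H90 a as the only H90 library and the spread taken from the other groups. Without H90 a the count was 53 (16.4% of all genes). The medians over all genes in these and the next 2 contrasts were between -0.02 and 0.04.

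At an equal share the mouse-modelled pool left less. In M10 minus H10, 54 of 54 genes were lower (median -2.41, range -6.17 to -0.38), against 18.1% of all genes, and 53 had M10 libraries below H10 without overlap (23.9%), Cenph being the exception. Ect2 had the smallest difference (-0.38, SE 0.125, adjusted p = 0.0152), a call that ended when H10 b, H10 c or M10 a was left out (adjusted p = 0.0504 to 0.0618) and with a term for library set (adjusted p = 0.808). Smc4 (-0.42, SE 0.0773, adjusted p = 3.72e-05), Kif23 (-0.58, SE 0.0991, adjusted p = 1.24e-05), Pttg1 (-0.67) and Cdca8 (-1.04) were next. With the term for set the calls of Smc4 (-0.13, adjusted p = 0.502), Kif23 (-0.41, adjusted p = 0.0969) and Pttg1 (-0.72, adjusted p = 0.0858) ended as well. At the other end stood Esco2 (-6.17), Cenpm (-4.64), Troap (-4.44), Nuf2 (-4.26) and Bub1 (-4.11), all of them genes with few counts in M10. In M90 minus H90, 53 of 54 were lower (median -1.81, range -2.27 to -0.22), against 19.5% of all genes, and 54 had M90 libraries below H90 without overlap (23.1%). Espl1 (-2.27, SE 0.188, adjusted p = 2.01e-12) and Smc2 (-2.26, SE 0.123, adjusted p = 2.84e-17) differed most, before Ncapg (-2.175), Bub1b (-2.15) and Cenph (-2.14). Cenpm (-0.93), Spc25 (-0.93), Kif23 (-0.94) and Smc4 (-1.02) differed least among those called. Pttg1 did not pass (-0.22, 95% interval -0.55 to 0.10). M10 and H10 lie in different library sets, and with a term for set 48 genes were called in M10 minus H10, against 7.44% of all genes. M90 minus H90 could be had within 1 set, from H90 b and c, where 51 were called (14.1% of all genes). Cenpm was among those not called there (-0.97, adjusted p = 0.0789).

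M90 and H10, which differ in model and in share at once, were neighbours in the order of levels. All M90 libraries lie in 1 library set and all H10 libraries in the other. Pool and set can be told apart here only through H90. The M90 mean was above the H10 mean in 32 genes and below it in 22, and the median difference was 0.03 (range -0.30 to 0.53). Of 54 genes 1 passed, Cenpe, with 15.2, 18.2 and 18.8 CPM in M90 and 13.2, 14.6 and 11.1 CPM in H10, a log2 difference of 0.43 (SE 0.143, adjusted p = 0.0361). Among all genes 7.46% were higher in M90 and 7.55% lower. The Cenpe call ended with a replicate block, with a term for library set, and without H10 a, H10 c, M90 b or M90 c. With the term for set the median difference was 0.23 and 0 of 54 genes passed, against 365 of all 13159. Libraries did not overlap in 5 genes with M90 below (18.5% of all genes) and in 7 with M90 above (17.7%). An unadjusted p under 0.05 was found for 6 genes, against 3489 of all 13159, Cenpe and Kif15 (0.36) with M90 higher, and Bub1b (-0.30), Nusap1 (-0.30), Cdc20 (-0.26) and Aurka (-0.25) with M90 lower. Cenpm (0.53), Cenpa (0.38), Cenpn (0.37) and Smc2 (-0.25) had differences of like size without it. The 95% intervals of the other 53 genes ran from -1.14 (Kif18a) to 1.13 (Cenpm), 50 of them lay within 1 and 30 within 0.5 of no difference. All 5 inner kinetochore genes had a difference above 0, with a median of 0.37, and all 4 anaphase switch genes had one below 0, with a median of -0.08. The 4 chromosomal passenger genes were also all above 0 (median 0.09), as were 5 of 6 spindle motors and 5 of 6 outer kinetochore genes. None of the 9 inner kinetochore and anaphase switch genes passed the adjusted test by edgeR, and of them Cdc20 alone had an unadjusted p under 0.05. Cenpa passed with those groups fitted alone (adjusted p = 0.0426) and without M10 a (0.0397).

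**Figure D4:**
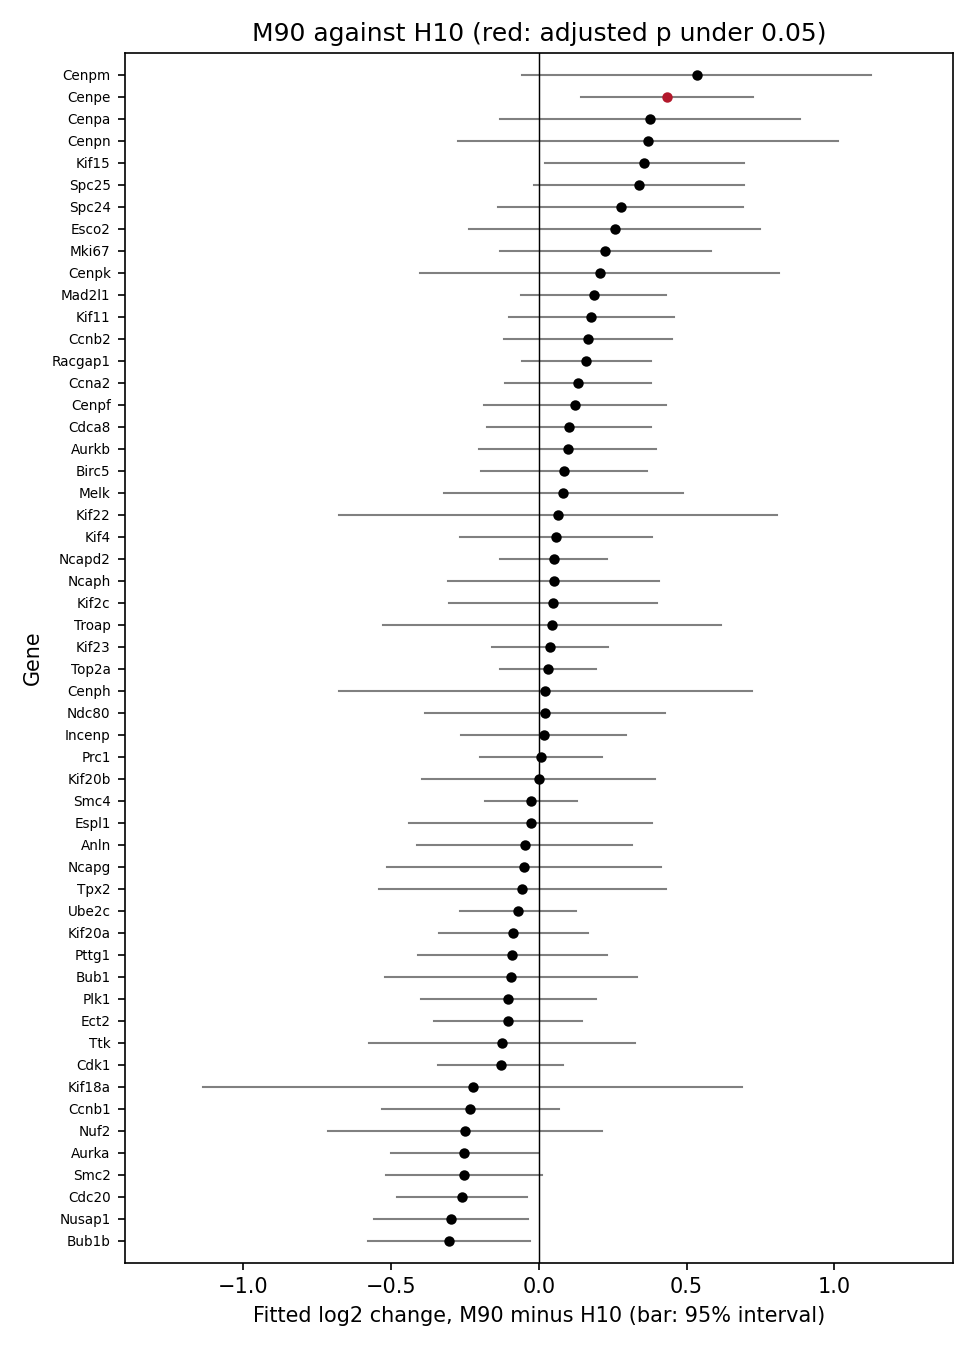
Fitted log2 change, M90 minus H10, of each gene with its 95% interval, ordered by size. Cenpe, in red, had adjusted p under 0.05. The estimates lie between -0.30 (Bub1b) and 0.53 (Cenpm) and nearly every interval spans 0.

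The effect of the share differed between the models for 25 of 54 genes. The test was the difference of log2 differences, (M90 minus M10) minus (H90 minus H10). By it 23 genes had a larger effect in the mouse-modelled pools (7.85% of all genes) and 2 a smaller one (6.92%). The median of this difference over the list was 0.68, against 0.01 over all genes. Larger and smaller refer here to ratios. In CPM the mean summed level went from 190 in M10 to 710 in M90 and from 694 in H10 to 2281 in H90. On that scale the step was wider in the human-modelled pools. Esco2 (4.28, SE 0.654, adjusted p = 1.24e-05), Cenpm (3.71, SE 0.583, adjusted p = 1.38e-05) and Troap (2.63, SE 0.563, adjusted p = 0.000904) led the larger effects, before Ndc80 (2.23) and Nuf2 (2.22), all with few counts in M10. Among genes with higher counts, Aurka (1.69, SE 0.211, adjusted p = 2.24e-07), Plk1 (1.36, SE 0.251, adjusted p = 0.000306), Nusap1 (1.32, SE 0.219, adjusted p = 3.36e-05) and Racgap1 (1.25, SE 0.183, adjusted p = 4.75e-06) were also larger in the mouse-modelled pools. Smc4 (-0.61, SE 0.107, adjusted p = 8.36e-05) and Ect2 (-0.73, SE 0.174, adjusted p = 0.00273) were smaller there. Kif23, which like them was among the least lowered in M10, did not pass (-0.36, 95% interval -0.64 to -0.08). Cenph (-1.02, 95% interval -2.02 to -0.01) and Incenp (-0.20, 95% interval -0.61 to 0.22) did not pass either. Without M10 c, Kif23 (adjusted p = 0.0105) and Cenph (adjusted p = 0.0279) did pass, as smaller effects in the mouse-modelled pools. By limma-voom the Nuf2 call ended (adjusted p = 0.0533). By role, 4 of 6 spindle assembly genes, 3 of 4 cyclin and Cdk1 genes, 3 of 4 checkpoint genes and 3 of 6 outer kinetochore genes had a larger effect in the mouse-modelled pools, as did 1 of 6 spindle motors. With a term for library set 20 genes were called, against 1442 of all 13159, and without H90 a 26 were called, against 1746 of 13401. The 2 share effects come from separate libraries. Across the 54 genes their Pearson correlation was 0.491 and Spearman's 0.422, against a Pearson correlation of 0.508 across all tested genes, and the effect was larger in the mouse-modelled pools for 45 genes. Genes of 1 library share its depth and scaling and are not independent, so no p is given.

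**Figure D5:**
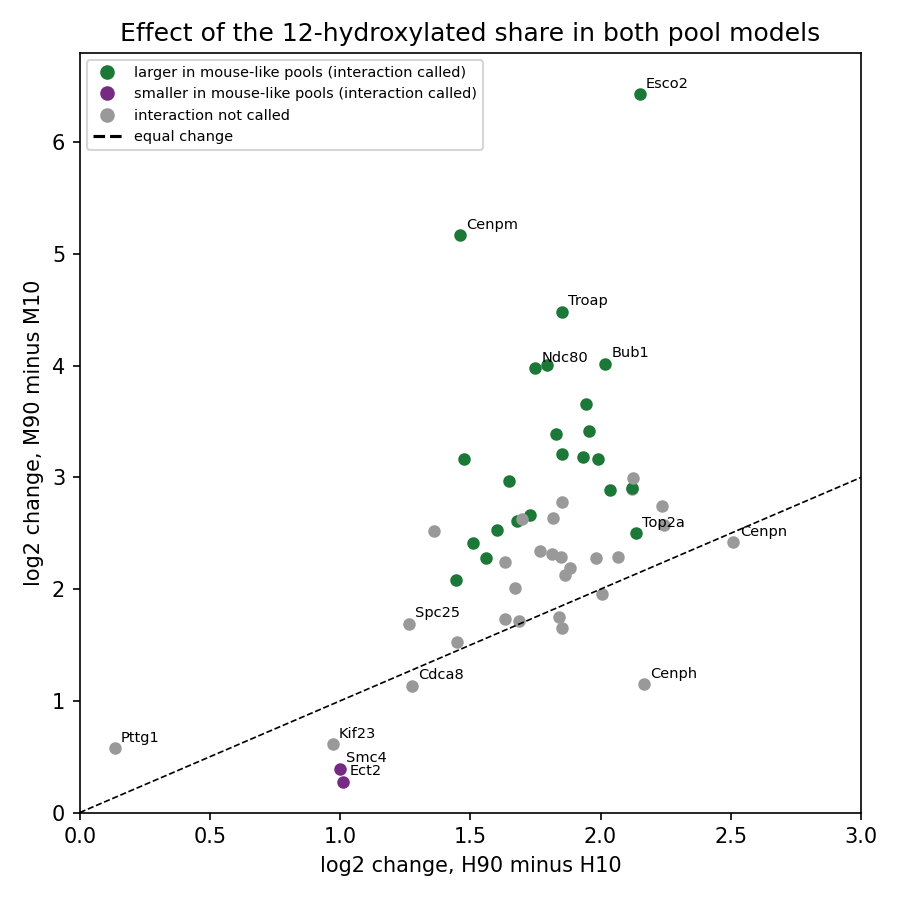
Log2 change of each gene between the pools of high and low 12α-hydroxylated share, for the human-modelled pools (H90 minus H10, x axis) and the mouse-modelled pools (M90 minus M10, y axis). Green points had a larger and purple points a smaller effect in the mouse-modelled pools by the interaction test, grey points did not pass, and the dashed line marks equal change. Of the 54 points 45 lie above the line, and Smc4 and Ect2 are the purple points below it.

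Other genes of division, taken from further lists, were measured in the same libraries and tested in the same fit, in which 28.5% of all genes fell in M90, 33.3% in M10, 9.86% in H90 and 24.5% in H10. Of 42 other late mitotic genes, 41 fell in M90, 42 in M10, 28 in H90 and 42 in H10 (medians -2.25, -4.48, -0.56 and -2.19). Cdca3, a trigger of mitotic entry, changed by -4.81 (SE 0.118, adjusted p = 1.98e-28) in M10, and Nek2, a centrosome kinase, by -4.92 (SE 0.154, adjusted p = 7.29e-26). Of 29 other kinetochore genes, 26 fell in M90, 27 in M10, 9 in H90 and 26 in H10 (medians -1.88, -3.24, -0.41 and -1.70). Kntc1, a checkpoint adaptor, changed by -5.94 (SE 0.298, adjusted p = 5.05e-19) in M10 and Sgol1, the protector of centromeric cohesin, by -3.97 (SE 0.210, adjusted p = 7.49e-19), while Zwint rose there (0.32, SE 0.0855, adjusted p = 0.00125), with a mean of 61.3 CPM in M10 and 49.0 CPM in vehicle. The APC/C itself had medians nearer to 0. Of 16 subunits and cofactors 9 fell and 2 rose in M90, 12 fell and 1 rose in M10, 5 fell and 1 rose in H90, and 9 fell in H10 (medians -0.28, -0.44, -0.11 and -0.37). In M10 Anapc5 fell (-1.07, SE 0.0578, adjusted p = 1.34e-18), Ube2s fell (-1.29, SE 0.108, adjusted p = 3.9e-13) and Anapc2 rose (0.44, SE 0.0616, adjusted p = 6.81e-08). Of 11 cohesin and loader genes, 9 fell and 1 rose in M90, 7 fell and 1 rose in M10, 7 fell in H90 and 8 in H10, with Smc3 at -1.21 (SE 0.0800, adjusted p = 4.83e-16) and Rad21 at -0.76 (SE 0.0512, adjusted p = 7.61e-16) in M10, and Mau2, a loader, higher there (0.25, SE 0.0638, adjusted p = 0.000712).

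Tubulins and centrosome scaffold genes, which non-dividing cells use as well, went both ways. Of 21 genes, 9 fell and 5 rose in M90, 9 fell and 10 rose in M10, 3 fell and 1 rose in H90, and 10 fell and 4 rose in H10. Of all genes 26.2% rose in M90, 31.2% in M10, 11.7% in H90 and 24.0% in H10. Tubb2a rose to 104 CPM in M10, against 12.2 CPM in vehicle (3.09, SE 0.0957, adjusted p = 5.86e-26), and Tubb2b to 55.0 CPM, against 9.38 CPM (2.56, SE 0.130, adjusted p = 2.23e-19). These β-tubulins are close paralogs and their reads may be shared. Of 10 transcription regulators of the mitotic programme, 8 fell in M90, 7 in M10, 5 in H90 and 7 in H10. Foxm1, an activator of G2 and M genes, changed by -2.32 in M90, -4.99 in M10, -0.52 in H90 and -2.74 in H10 (SE 0.140 to 0.191, all with adjusted p of 0.00647 or less). Mybl2, which encodes the transcription factor B-Myb, changed by -2.20, -5.11, -0.58 and -2.175 in the same order of pools. The medians of the 54 genes were -2.44, -4.93, -0.61 and -2.42.

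Counts for some of the genes can hold reads of others. On GRCm38 with GENCODE M21, exons of Kif20a overlapped those of Cdc23 over 29.3% of their length, Ube2c those of Tnnc2 over 22.8%, Kif4 those of Pdzd11 over 15.1%, Ncapg those of Lcorl over 13.4%, Ccna2 those of Exosc9 over 12.5% and Prc1 those of Rccd1 over 11.1%. Whether counting used strand is not given in the sources used here. Ccnb1 had a processed pseudogene, Ccnb1-ps, of 99.2% identity, and Mad2l1, Ndc80, Racgap1 and Mki67 had shorter copies of at least 95%, so small remaining counts of these genes in M10 are uncertain. Pttg1 lies at chr11:43420250-43426251, Smc4 at chr3:69004738-69034623, Kif23 at chr9:61915905-61946774, Ect2 at chr3:27097222-27153878 and Esco2 at chr14:65819038-65833994, and no exon overlap or copy was found for these 5.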

How the data were processed

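RNA of 15 libraries of ileal organoids was sequenced after poly-A selection with the TruSeq kit, per the labels' protocols. Per the submitters' processing notes, bcl2fastq 2.17, STAR 2.5.2b and featureCounts 1.5.0-p3 were used with mm10 (GRCm38), and strand setting and annotation are not given in the sources used here. The deposited values are raw counts of reads per gene symbol, with no normalization by the authors. Totals of 11245807 to 28989526 bear on precision mainly for the genes with few counts in M10.

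From these counts, genes were kept by edgeR's filterByExpr (13159 of 23420), libraries were scaled by TMM, and a robust quasi-likelihood model of the 5 group means was fitted with edgeR 4.0.16 in R 4.3.3 (10 residual degrees of freedom, biological coefficient of variation 0.0881). Each of 10 contrasts was adjusted by Benjamini-Hochberg over all tested genes, with the threshold at adjusted p of 0.05. The standard error was taken as the log2 change over the square root of F. CPM are on TMM-scaled library sizes, and marker sums on plain totals. Share of vehicle is a ratio of group means, and pooled ratios of counts with exact 95% intervals cover counting error only. Alternatives used limma-voom (limma 3.58.1) and DESeq2 1.42.0. The code was tested on simulated counts. Coordinates and exon overlaps came from GENCODE M21, promoters from RefSeq, and copies from blastn 2.17.0+ (identity of at least 95% over 200 bases).

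The genes, the role groups and the further lists were chosen with earlier results of these data known. Values in every library are given for the highest expressed gene of each role group and for those with the most and least negative change in H90 and in M10 against vehicle. Between pools the 5 most negative and the 5 most positive changes are named, and in the further lists the 2 smallest adjusted p in M10. Other genes named were chosen after their values were seen.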

Additional observations from a re-analysis of the deposited data

Results flagged for a closer look

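For 25 of the 54 genes the effect of the 12α-hydroxylated share differed between the mouse-modelled and the human-modelled pools by edgeR's interaction test (adjusted p under 0.05, log2 of M90 over M10 minus log2 of H90 over H10), 23 with a larger effect in the mouse-modelled pools and 2 with a smaller one, against 7.85% and 6.92% of all genes. Among the cyclins and kinases the values were 0.93 for Ccnb1, 0.93 for Ccnb2, 1.17 for Ccna2, 1.69 for Aurka and 1.36 for Plk1. Among the spindle and checkpoint genes they were 1.32 for Nusap1, 2.63 for Troap, 2.00 for Bub1, 1.46 for Ttk and 0.64 for Mad2l1. Cdc20 had 0.92, Ube2c 0.71, Aurkb 0.79 and Birc5 0.90. At the kinetochore and among the motors Cenpm had 3.71, Ndc80 2.23, Nuf2 2.22, Cenpf 1.72 and Kif2c 1.56. Racgap1 had 1.25, Top2a 0.36, Mki67 0.85 and Esco2 4.28. Of the genes named, Esco2, Troap, Cenpm, Nuf2, Ndc80, Bub1 and Ttk had few counts in M10. The 2 genes with a smaller effect in the mouse-modelled pools were Ect2 (-0.73) and Smc4 (-0.61). M90 and M10 lie in 1 library set, H10 in the other, and H90 in both, and with a term for library set 20 of the 54 genes passed, against 1442 of all 13159.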

How the results depend on the processing

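In M90, M10 and H10 against vehicle, and in the share and model contrasts, 48 to 54 genes were called under every alternative run. The share of all genes called moved between alternatives. In M10 minus H10 it was 7.44% lower with a term for library set and 30.8% with scaling by library size alone. With 1 library left out, the lowest and highest counts were 53 and 54 in M90, 54 and 54 in M10, 36 and 46 in H90, 53 and 53 in H10, 52 and 54 in M90 minus M10, 52 and 54 in M10 minus H10, and 22 and 32 for the interaction. H90 against vehicle went to 18 of 54 with a term for library set, when 2.7% of all genes were called lower. M90 minus H10 (1 gene) gave 2 with no filter on low counts, 0 with a term for set, 3 with only those groups fitted, and 0 to 2 with 1 library left out (0 without H10 a, H10 c, M90 b or M90 c, 2 without M10 a or M10 b). Of all genes, 6.15% were higher in M90 minus H10 with no filter, 1.38% with the set term and 12.2% with only those groups fitted. With 1 library left out it was 5.26% to 8.1%. The interaction (25) gave 19 with limma-voom (1993 of all 13159) and 31 with no filter (2076 of all 17076). With 1 library left out the interaction was called for 1493 to 2072 of all genes. Scaling by library size alone put the summed level at 18.6% of vehicle in M90, 4.60% in M10 and 18.4% in H10, with the median change of all genes at -0.17, -0.29 and -0.13 in place of -0.02, -0.03 and -0.004, and without Top2a and Mki67 the M10 level was 6.04%. With 1 library left out the H90 difference of Cenpn ran from -0.19 to 0.057 (0.057 without vehicle c, 0.045 without H90 b), and that of Spc25 from -0.17 to 0.032 (without H90 b). Spc25 was also at 0.00059 with the set term and at 0.0070 within the first set (an alternative chosen after seeing the data). The interaction of Incenp ran from -0.35 to 0.10 (without M10 c). None of these passed, and the cause was not tested.

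Replicate letters recur in the groups. Deviations of same-letter libraries were only weakly correlated (-0.0237 to 0.0829, median 0.00499, 0 of 30 pairs above 0.1), against -0.0579 to 0.05 for other letters. For 11 of 15 libraries the closest deviations were those of the same letter. A replicate block changed the count in M90 minus H10 alone, to 0 (Cenpe, adjusted p = 0.0518). Over single genes, 5415 of 5512 values kept direction and side of the threshold, 67 lost and 24 gained a call, and 6 changed sign. Many of these values come from fits that left out a library of a group outside the contrast, where little could change. The genes were also chosen in part for extreme changes, so this count is a description only. In M10 the values of Esco2, Troap, Cenpm, Nuf2 and Ndc80 rest on 3 to 22 counts each over 3 libraries, which limits their precision. The same holds for Ttk, Bub1 and Cenpn, with 4 to 12 counts in each M10 library.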
